A study of Mus musculus with 10 samples.

Results

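Dapl1, the gene of death-associated protein-like 1, was followed through the 10 RNA-seq libraries of the series. It is 1 gene of the 11781 that passed an expression filter and of the 27403 with any count. Dapl1 was selected on its measured difference between the groups in these same libraries, so its levels and that difference are given as a description, with no test. The libraries came from Pmel CD8+ T cells, which came from Thy1.2/Thy1.2 mice and recognise gp100, a melanoma antigen, through a transgenic receptor. The cells were activated with gp100 peptide and IL-2 and transduced with the MSCV-IRES-Thy1.1 (MIT) retrovirus, which carried the mouse BATF reading frame (MIT-BATF) or no insert (MIT-Empty). Both groups were then grown with IL-2, IL-7 and IL-15 and given to Ly5.1 mice bearing B16-F10 melanomas (adult mice of both sexes were used throughout), which keep their own T cells. At day 7 after transfer 2000 live Thy1.1+ cells were sorted from the tumor of each mouse. By this protocol a library stands for 1 mouse, with 5 libraries in each group, but the deposited counts put a limit on this, given below.

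Dapl1 encodes a small protein related to DAP, a target of the kinase mTOR that holds back autophagy. It was first known from differentiating epithelia. In CD8+ T cells the transcript is known from naive and central memory cells, and the protein is known to restrain NFATc2, a transcription factor that calcineurin releases into the nucleus after T cell receptor signaling. DAP and its relatives are also known to bind dormant ribosomes in eggs.

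The libraries held between 6534472 and 34102086 estimated counts. The counts of 4 libraries lay gene by gene within those of another library of their group, replicate 4 within 2 and replicate 5 within 3 in both groups. If those counts are the same reads, the 5 libraries of a group are not 5 separate measurements, and p-values over 10 libraries are too small. The SDs, ranges and orders of replicates below, with n = 5, are then of libraries and not of separate mice. Calls with the contained library subtracted ("shared reads counted once") are given by gene or by list beside the main ones. The deposited names of the libraries carry a further number, the same 5 in both groups, whose meaning the sources used here do not state, so that the 5 libraries of a group may differ in more than the mouse. Batf itself was at 12.4 to 26.4 CPM (counts relative to the library size, scaled by TMM) in MIT-BATF and at 13.4 to 50.7 CPM in MIT-Empty, so the groups overlapped. The sources used here do not give the sequence of the inserted reading frame, so it is unknown whether its RNA was counted as Batf, and the groups are named below as they are labelled. Thy1, the gene whose Thy1.1 allele is the vector marker, ran from 148 to 338 CPM in MIT-BATF and from 222 to 299 CPM in MIT-Empty. The CD8 T cell genes were present in every library, the receptor gene Trbc2 being the most abundant, and their sum ran from 16869 to 23099 CPM in MIT-BATF and between 16843 and 27583 CPM in MIT-Empty.

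Dapl1 (ENSMUSG00000026989.5) lies on the plus strand of chromosome 2 of GRCm38 (mm10) from 59484653 to 59505020 and has 2 transcripts in GENCODE. Dapl1-201 has 4 exons and 573 bases, with a coding sequence of 107 codons. Dapl1-202 is annotated as a processed transcript without a coding sequence. It has 663 bases, starts 16 bases further on and holds 1 exon more, of 106 bases, in the intron before the last exon. That exon is shown because it is the main stretch by which reads of the 2 transcripts can be told apart. It lies at chr2:59500540-59500645 on the plus strand and is printed in capitals, 5′ to 3′, between the last 12 bases of exon 3 and the first 12 of exon 5.
Dapl1-202 exon 4: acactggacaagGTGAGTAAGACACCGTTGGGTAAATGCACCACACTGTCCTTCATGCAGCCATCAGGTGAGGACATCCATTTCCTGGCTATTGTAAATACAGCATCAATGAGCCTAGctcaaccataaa
Read on in the frame of Dapl1-201, the capitals hold no stop, and one begins at base 9 of exon 5, while the stop of Dapl1-201 begins at base 115 of the same exon.

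The 250 bases before the start of Dapl1-201 are shown because BATF is a factor of the AP-1 family and NFAT one that Dapl1 is known to restrain. They are from RefSeq (GRCm38.p6, chr2:59484403-59484652, plus strand, 5′ to 3′), with the matches to the motifs searched in capitals.
Dapl1 promoter: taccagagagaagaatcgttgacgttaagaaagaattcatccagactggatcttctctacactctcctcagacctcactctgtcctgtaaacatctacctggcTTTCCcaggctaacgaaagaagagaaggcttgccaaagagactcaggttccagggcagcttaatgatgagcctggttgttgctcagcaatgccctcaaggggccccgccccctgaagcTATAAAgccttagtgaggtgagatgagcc
The AP-1 motif TGANTCA had no match on either strand, against 6.75% of the 32851 RefSeq promoters of this length that hold it. The TCF and LEF core CTTTGA had none either (13.8% of promoters). The NFAT core GGAAA had 1 match, on the minus strand from base -147 to -143 (55.6% of promoters hold it on either strand). The letters TATAAA, searched after the sequence had been seen and on the plus strand only, stood from base -29 to -24 and are held by 7.59% of promoters. The motifs did not overlap, and a match or its absence in this window says nothing of where a factor binds.

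Nearly all Dapl1 counts were assigned to the coding transcript. In MIT-Empty replicates 1 to 5, Dapl1-201 had 484, 480, 558, 306 and 683 TPM (abundance relative to the library and scaled by transcript length), and Dapl1-202 had 0.948, 0.966, 2.13, 0.26 and 1.88 TPM. In MIT-BATF, Dapl1-201 had 62.3, 75.0, 71.8, 81.5 and 94.3 TPM in replicates 1 to 5. Dapl1-202 was at 0 there in replicates 1, 2 and 4 and at 0.441 and 0.604 TPM in replicates 3 and 5. The coding transcript was thus lower in every MIT-BATF library than in every MIT-Empty library. The share of Dapl1-202 in the counts of the gene ran from 0.107% (95% Wilson interval 0.0384% to 0.509%) to 0.485% (0.357% to 0.661%) in MIT-Empty, in replicates 4 and 3. It was 0.765% (0.441% to 1.29%) and 0.792% (0.478% to 1.39%) in the MIT-BATF libraries where it was found, replicates 3 and 5. In replicates 1, 2 and 4 a count of 0 allowed a share of up to 0.482%, 0.255% and 0.434% if set at 3 counts of the total, and the upper Wilson limits were 0.614%, 0.326% and 0.552%. These intervals and limits cover counting error only. The shares of MIT-BATF replicates 3 and 5 are not separate measurements, since the counts of the latter lie within the former. At this depth no ordering of the groups by this share could be read, as the intervals of replicate 3 of both groups overlapped.

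**Figure D1:**
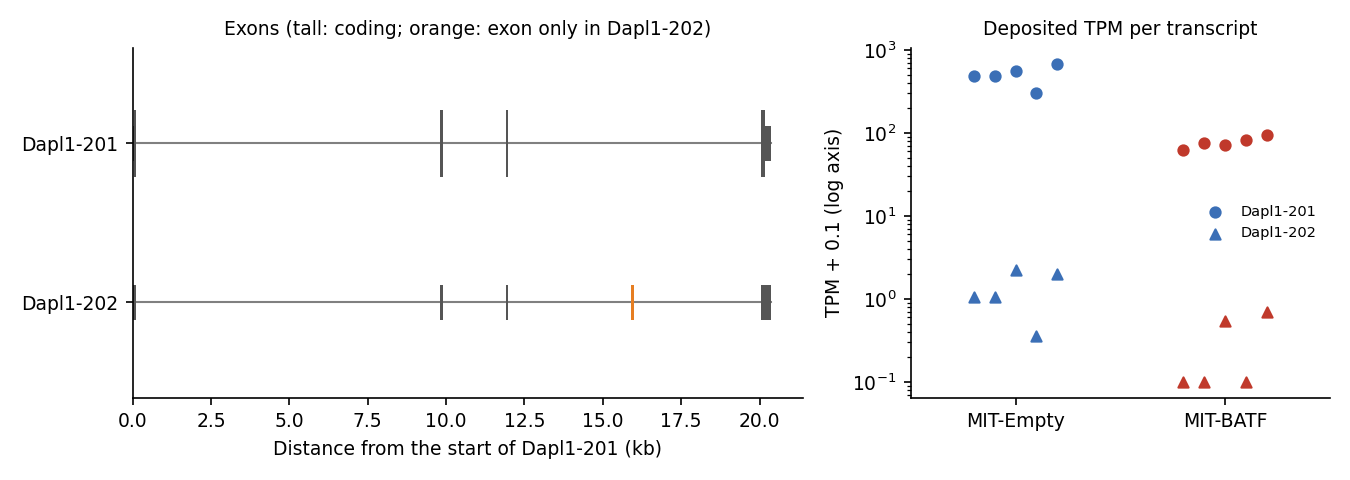
Left, exons of Dapl1-201 and Dapl1-202 against the distance from the start of Dapl1-201 in kb, with coding parts tall and the exon found only in Dapl1-202 in orange. Right, deposited TPM plus 0.1 on a log axis in the 10 libraries, MIT-Empty in blue and MIT-BATF in red, circles for Dapl1-201 and triangles for Dapl1-202. Dapl1-201 lies at 306 TPM or more in MIT-Empty and at 94.3 TPM or less in MIT-BATF, and Dapl1-202 at 2.13 TPM or less throughout.

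Over both transcripts Dapl1 had 3039, 7416, 8227, 1428 and 5940 counts in MIT-Empty replicates 1 to 5 and 622, 1176, 1723, 692 and 1591 counts in MIT-BATF. Scaled to the library, these were 371, 375, 336, 230 and 492 CPM in MIT-Empty. They were 54.5, 47.6, 39.9, 67.6 and 85.7 CPM in MIT-BATF. The groups did not overlap, and the lowest MIT-Empty library, replicate 4, was 2.69 times the highest MIT-BATF library, replicate 5. For scale, 3.17% of all genes tested were below MIT-Empty in every MIT-BATF library. The mean of the MIT-BATF libraries was 59.1 ± 18.0 CPM (SD, n = 5) and that of MIT-Empty 361 ± 93.8 CPM (n = 5), a ratio of 6.11. The fit across all genes gave a log2 difference, MIT-BATF minus MIT-Empty, of -2.61.

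By TMM-scaled CPM the libraries of each group spread by a similar factor. The highest was 2.15 times the lowest in MIT-BATF and 2.14 times in MIT-Empty, and the SD of log2 CPM was 0.43 and 0.40. This likeness depended on the scaling. Without TMM the highest was 1.75 times the lowest in MIT-BATF and 2.22 times in MIT-Empty, and by TPM 1.52 and 2.24 times. Relative to the summed counts of 14 CD8 T cell genes, Dapl1 was tighter. It had 21.6, 19.8, 15.6, 13.7 and 17.8 counts per 1000 counts of that list in MIT-Empty replicates 1 to 5. In MIT-BATF it had 2.88, 2.56, 2.36, 2.93 and 3.79, so that the lowest MIT-Empty library was 3.61 times the highest MIT-BATF library. In bulk RNA fewer cells with Dapl1 and less Dapl1 RNA in each cell cannot be told apart.

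The counts left after a contained library was taken off the one that holds it gave Dapl1 levels of their own, given here as CPM of the library total without TMM scaling. MIT-Empty replicate 2 kept 5988 Dapl1 counts after replicate 4 was subtracted, or 427 CPM, against 219 in replicate 4. MIT-Empty replicate 3 kept 2287, or 250.1 CPM, against 485 in replicate 5. In MIT-BATF replicate 2 kept 484 counts, or 46.2 CPM, against 64.7 in replicate 4. MIT-BATF replicate 3 kept only 132 of its 1723 counts, or 10.1 CPM, against 75.9 in the contained replicate 5. Replicate 5 thus held 92.3% of the Dapl1 counts of replicate 3 but 61.5% of its total. Counted in this way Dapl1 stood at 48.0 ± 25.1 CPM (SD, n = 5) in the MIT-BATF libraries and 348 ± 114 CPM (n = 5) in those of MIT-Empty, with no overlap. The range within MIT-BATF was 7.55 times, against 1.75 times on the same scale without subtraction. The log2 ratio of these means was -2.86, and the edgeR fit to these counts, with TMM, gave a log2 difference of -2.81.

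**Figure D2:**
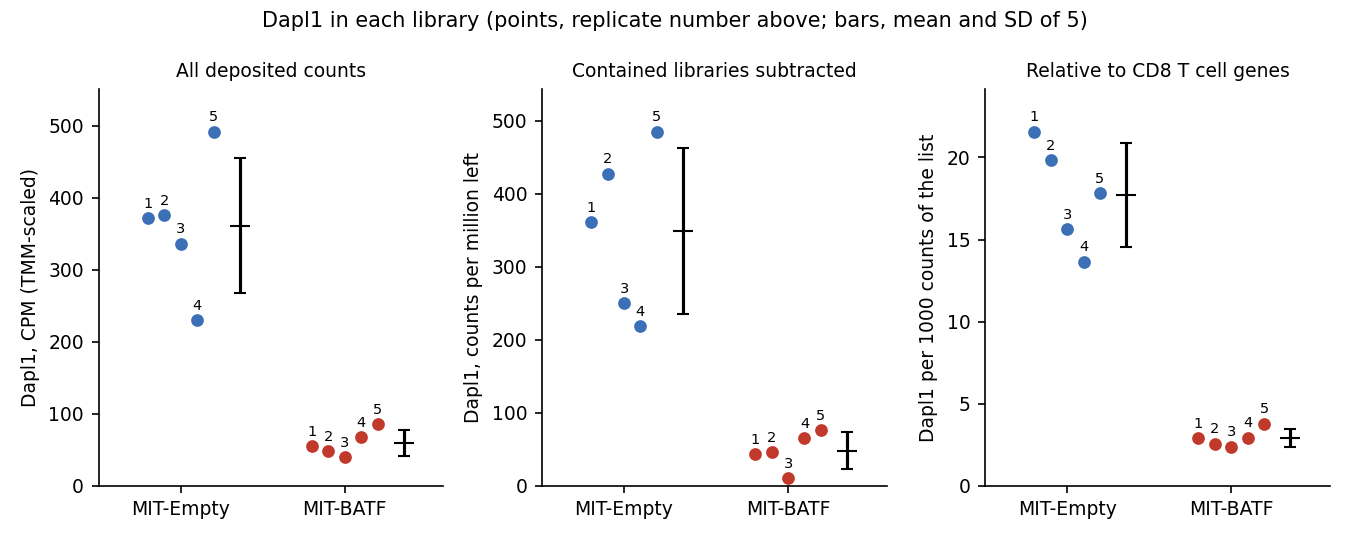
Dapl1 in the 5 MIT-Empty (blue) and 5 MIT-BATF libraries (red), with the replicate number above each point and the mean and SD of each group as bars. The panels give TMM-scaled CPM, CPM without TMM with contained libraries subtracted, and Dapl1 counts per 1000 counts of the CD8 T cell list. In each panel every MIT-BATF library lies below every MIT-Empty library, and MIT-BATF replicate 3 is the lowest point of the middle panel, at 10.1.

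By length-scaled level Dapl1 was among the abundant transcripts in both groups. It was at 485, 481, 560, 306 and 685 TPM in MIT-Empty replicates 1 to 5, where it ranked between 234 and 356 among the genes with TPM, within the highest 1.19% to 2.23%. In MIT-BATF it was at 62.3, 75.0, 72.3, 81.5 and 94.9 TPM and ranked between 658 and 897, within the highest 3.72% to 4.44%. Set among 30 other genes of naive and central memory T cells by TPM, Dapl1 was the highest in each MIT-Empty library. In each MIT-BATF library it was the second, behind Ccr7, which encodes the receptor that leads T cells to lymph nodes. Ccr7 was at 211 ± 44.8 TPM (SD, n = 5) in the MIT-BATF libraries and 277 ± 66.0 TPM (n = 5) in those of MIT-Empty. The MIT-BATF libraries ran from 160 to 261 TPM of Ccr7 and those of MIT-Empty from 166 to 336 TPM, so that Ccr7 overlapped between the groups where Dapl1 did not.

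Of the 539 genes whose mean over the 10 libraries was at least as high as that of Dapl1 (210.0 CPM), Dapl1 itself had the lowest log2 difference. Among all 11781 genes tested, 81 lay lower still, all of them at a lower mean level. Among 595 other genes within 2-fold of its mean level, predicted genes, pseudogenes and receptor segments left out, the median log2 difference was -0.07 and 1 gene lay below Dapl1. That gene was the melanocyte gene Tyrp1, at -6.11. Over the 10 libraries the SD of log2 CPM was 1.44 for Dapl1 and 0.29 for the median of these genes. The values in this paragraph rank a gene selected on this difference and support nothing further.

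**Figure D3:**
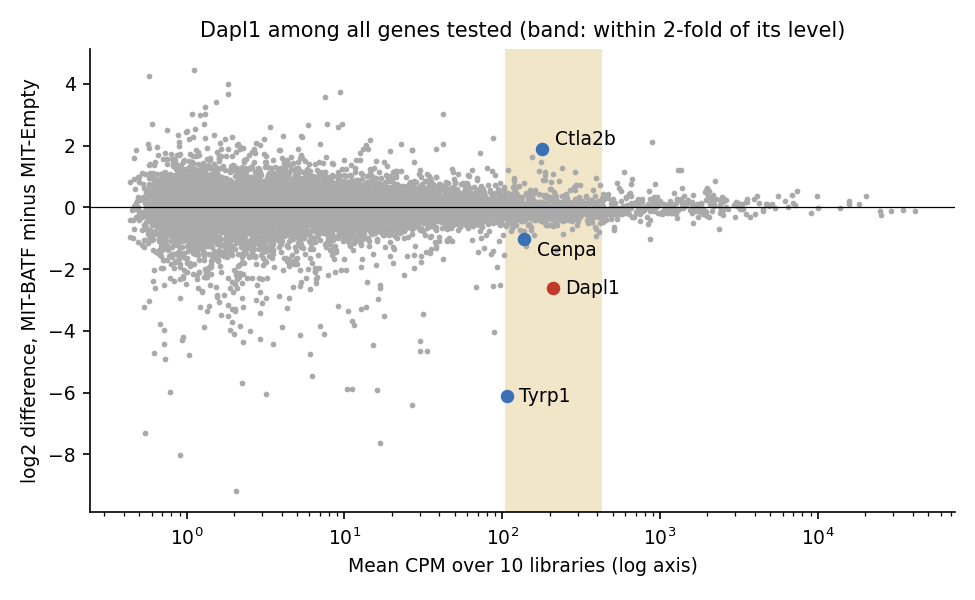
The log2 difference between MIT-BATF and MIT-Empty for all genes tested (grey points) against the mean CPM over 10 libraries on a log axis. Dapl1 (red) lies at -2.61 in the band of genes within 2-fold of its level, between Tyrp1 at -6.11 and Cenpa at -1.03, with Ctla2b at 1.89.

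Likeness in pattern was measured by the SD over the 10 libraries of the log2 ratio of Dapl1 to each of those 595 genes. A value of 0 would mean a constant ratio, and a gene at a constant level would give the SD of Dapl1 itself, 1.44. Within groups the pooled SD of Dapl1 was 0.41, so the measure largely ranks genes by the group difference on which Dapl1 was selected. Here and for the opposed and any-level genes below it is a description only. The smallest value was 0.89, for Cenpa, which encodes the histone variant of centromeres. It was followed by Cks1b, a cofactor of cyclin-dependent kinases (1.01), Dbi, which encodes a protein that binds acyl-CoA (1.04), the histone acetyltransferase gene Hat1 (1.06) and the RNA demethylase gene Alkbh5 (1.07). The median over the 595 genes was 1.4. Cenpa was at 88.2, 79.6, 93.0, 83.1 and 109 CPM in MIT-BATF replicates 1 to 5 and at 184, 175, 199, 147 and 221 CPM in MIT-Empty. Like Dapl1 it was highest in MIT-Empty in replicate 5 and lowest in replicate 4, but its group means differed by a log2 of -1.03 against -2.61. The other 4 did not share that order within MIT-Empty. Dbi, Hat1 and Alkbh5 were at their highest of MIT-Empty (705, 197 and 195 CPM) in replicate 4, where Dapl1 was lowest. Cks1b was highest in replicate 5 (253 CPM), as Dapl1 was, but lowest in replicate 1. Within MIT-BATF, Dapl1 and all 5 genes were highest in replicate 5, while only Alkbh5 was, like Dapl1, lowest in replicate 3. The log2 differences of the 5 genes, between -1.03 and -0.73, were all smaller in size than that of Dapl1. Cks1b and Dbi overlapped between the groups. With shared reads counted once, edgeR did not call Cks1b, Dbi, Hat1 or Alkbh5 (adjusted p = 0.174, 0.3, 0.168 and 0.179). Over the 6 libraries that are not contained in another, 3 of these 5 genes were again among the 5 nearest, Cenpa first.

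The genes of this level with the most opposed pattern, by the SD of the log2 product with Dapl1, were Ctla2b, a cysteine protease inhibitor gene (0.64), Lgals3, which encodes galectin-3 (0.83), and Gzma, which encodes granzyme A (0.84). Ctla2b ran from 218 to 328 CPM in MIT-BATF and from 61.6 to 86.0 CPM in MIT-Empty. It has a close relative, Ctla2a, between which and Ctla2b reads may be split. Gzma ran from 204 to 302 CPM and from 50.5 to 187 CPM, and Lgals3 overlapped between the groups. The lowest Gzma value was in MIT-Empty replicate 5, the library with the most Dapl1.

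With genes of any level admitted, a choice made after the values were seen, the nearest of 10784 genes were Pla1a (0.50), Cd70 (0.51), Eno3 (0.53), Agr3 (0.54) and Igsf3 (0.56). Pla1a, a phospholipase gene, was at 3.35 ± 0.41 CPM (SD, n = 5) in the MIT-BATF libraries and 14.1 ± 5.70 CPM (n = 5) in those of MIT-Empty. Cd70, which encodes the ligand of the costimulatory receptor CD27, was at 3.73 ± 0.88 and 15.2 ± 2.94 CPM. Eno3, an enolase gene, was at 6.80 ± 0.855 and 25.0 ± 5.46 CPM. Agr3 had no count in any MIT-BATF library and at most 1.52 CPM in MIT-Empty. It passed the filter only through MIT-Empty, and its log2 level in MIT-BATF was set by the prior count, so its likeness carries no weight. Over the 6 libraries that are not contained in another, Pla1a, Cd70, Eno3, Agr3 and Igsf3 ranked 17, 12, 19, 1 and 5. All 5 are expressed at a small part of the level of Dapl1, so their ratios carry more counting error.

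**Figure D4:**
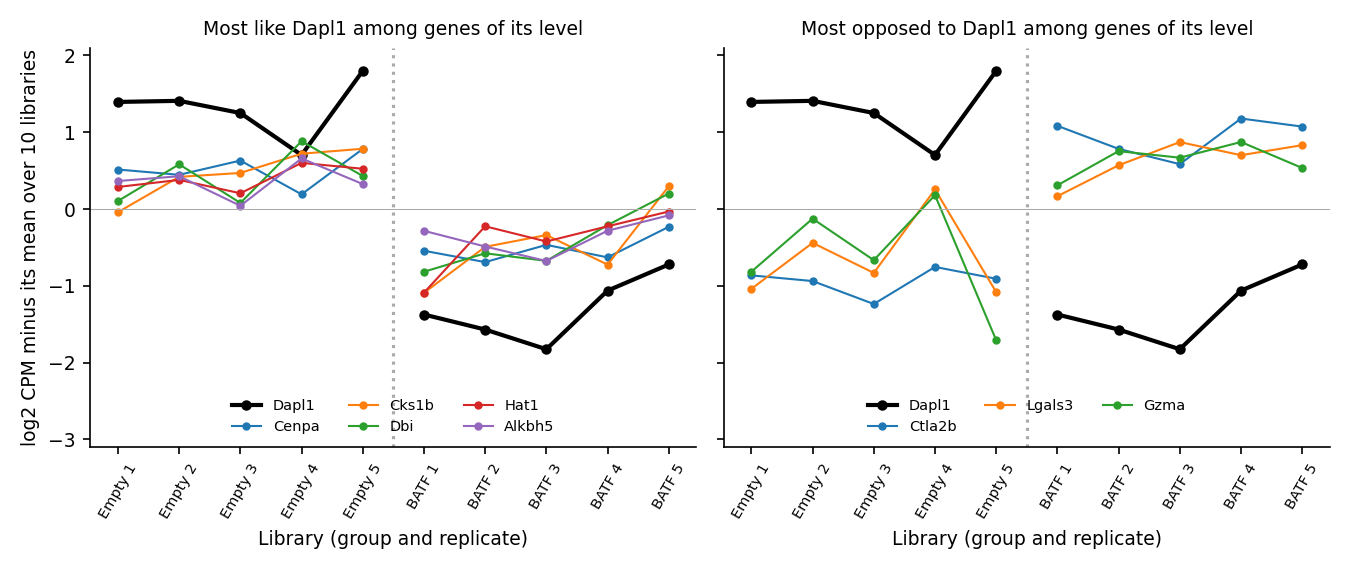
Log2 CPM minus its mean over 10 libraries for Dapl1 (black) with the 5 genes of its level most like it (left) and the 3 most opposed (right), for MIT-Empty (Empty) and MIT-BATF (BATF) replicates. Lines only join the points of a gene within a group, whose replicates have no order. Dapl1 has the widest spread of the genes drawn, with an SD of 1.44.

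Genes that are known with Dapl1 from naive and central memory T cells were called in both directions. All 30 listed genes were tested, and 5 rose and 2 fell in MIT-BATF by edgeR's quasi-likelihood test, with a median log2 difference of 0.09. Over all genes tested 2.16% were called higher and 2.43% lower, with a median of 0.01. With shared reads counted once 3 of the 30 rose and 1 fell, against 0.575% and 0.683% of all genes. Actn1, which encodes an alpha-actinin of the cytoskeleton, fell with Dapl1. It ran from 1.45 to 4.73 CPM (median 2.44) in MIT-BATF and from 7.20 to 13.4 CPM (median 10.5) in MIT-Empty, with no overlap. Its log2 difference was -1.96 (standard error 0.31, adjusted p = 0.00239 from edgeR with Benjamini-Hochberg adjustment, and 0.0108 with shared reads counted once).

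The 5 genes of this list that rose were Satb1, Lef1, Bcl2, S1pr1 and Foxp1. Other transcription factor genes of the list were not called, among them Tcf7, with a log2 difference of 0.03 (adjusted p = 0.974 from edgeR), and Id3, with -0.68 (0.145). Satb1, which encodes a chromatin organizer, was at 341 ± 104 CPM (SD, n = 5) in the MIT-BATF libraries and 139.8 ± 30.6 CPM (n = 5) in those of MIT-Empty. Its log2 difference was 1.28 (standard error 0.21, adjusted p = 0.00309 from edgeR, 0.0182 with shared reads counted once). Lef1, a partner of TCF1, was at 24.8 ± 3.46 and 12.3 ± 2.41 CPM, a log2 difference of 1.00 (adjusted p = 0.00378 from edgeR), but its adjusted p was 0.108 when shared reads were counted once. Bcl2, which protects cells from death, was at 72.8 ± 8.27 and 45.7 ± 5.22 CPM (log2 difference 0.67, adjusted p = 0.0113 from edgeR, 0.0461 with shared reads counted once). None of the 30 genes had a log2 difference as low as that of Dapl1, and the lowest was that of Actn1.

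Of the calcineurin and NFAT pathway, 30 of 34 genes were tested and edgeR called 0 of them. Over all genes tested 2.16% were called higher and 2.43% lower, so 0 calls in a list of this size says little of its members. By edgeR 5 had an unadjusted p under 0.05, and the share of all genes at that p is not given here. DESeq2 and limma voom called 0 as well. The median log2 difference was 0.03. Nfatc2, the factor that Dapl1 is known to restrain, ran from 3.55 to 11.9 CPM (median 8.63) in MIT-BATF and from 2.69 to 6.01 CPM (median 4.67) in MIT-Empty, so the groups overlapped. It had the highest log2 difference of the list, 0.90 (standard error 0.32, adjusted p = 0.14 from edgeR). These are levels of RNA and say nothing of where the protein lies in the cell.

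Among genes known to be induced through NFAT in T cells, 29 of 30 were tested, and 2 rose and 5 fell, against 2.16% and 2.43% of all genes, with a median of 0.05. With shared reads counted once 0 rose and 4 fell, against 0.575% and 0.683% of all genes. The genes that fell included the exhaustion factor gene Tox, from 21.3 to 48.7 CPM (median 27.7) in MIT-Empty to between 6.31 and 14.6 CPM (median 8.34) in MIT-BATF. Its log2 difference was -1.79 (standard error 0.25, adjusted p = 0.00123 from edgeR, 0.00794 with shared reads counted once). Spry1, an inhibitor of receptor signaling, had -2.32 (adjusted p = 0.0036), the nearest to Dapl1 in size. Csf2, which encodes the cytokine GM-CSF, had -1.56 (adjusted p = 0.00404) and Cd200, which encodes a ligand of an inhibitory receptor, -1.78 (adjusted p = 0.00833), all from edgeR. These 3 had adjusted p-values of 0.0241, 0.0182 and 0.0333 from edgeR with shared reads counted once. Without MIT-Empty replicate 2, 4 of the 29 passed.

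The homologue Dap showed no such difference. It ran from 48.6 to 63.4 CPM (median 55.9) in MIT-BATF and from 52.2 to 64.4 CPM (median 63.1) in MIT-Empty, a log2 difference of -0.13 (standard error 0.13, adjusted p = 0.673 from edgeR). By TPM Dap stood at 25.9 ± 4.88 (SD, n = 5) in the MIT-BATF libraries and 27.3 ± 3.68 (n = 5) in those of MIT-Empty, below Dapl1 in every library. Of 10 genes named DAP, or DAP kinases, or known with DAP from dormant ribosomes, 9 were tested and edgeR, DESeq2 and limma voom called 0, with 0 at an unadjusted p under 0.05. Of 36 autophagy genes 35 were tested and the same 3 tools called 0, with 6 at an unadjusted p under 0.05 and a median log2 difference of 0.15. Beside 2.16% of all genes called higher and 2.43% lower, 0 calls in lists of 9 and 35 genes says little of their members.

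Genes around Dapl1 on chromosome 2 were not called either. Of 9 annotated genes whose start lay within 500 kb of its own, 4 were tested, and edgeR, DESeq2 and limma voom called 0, with 2 at an unadjusted p under 0.05. Since 2.16% of all genes were called higher and 2.43% lower, 0 of 4 says little. Pkp4, which encodes a plakophilin of cell junctions and starts at -324 kb from the start of Dapl1, was at 11.4 ± 3.62 CPM (SD, n = 5) in the MIT-BATF libraries and 17.3 ± 3.22 CPM (n = 5) in those of MIT-Empty (log2 difference -0.61, adjusted p = 0.14 from edgeR). On the other side Tanc1, 127 kb after the start of Dapl1, had a log2 difference of -0.28 and Wdsub1 one of -0.81 (adjusted p = 0.741 and 0.471). Baz2b, which encodes a bromodomain protein, had 0.70 (adjusted p = 0.234). Of the other 5, 4 are processed pseudogenes with at most 5 counts in any library, and the noncoding gene 5330411J11Rik had no transcript among those quantified.

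**Figure D5:**
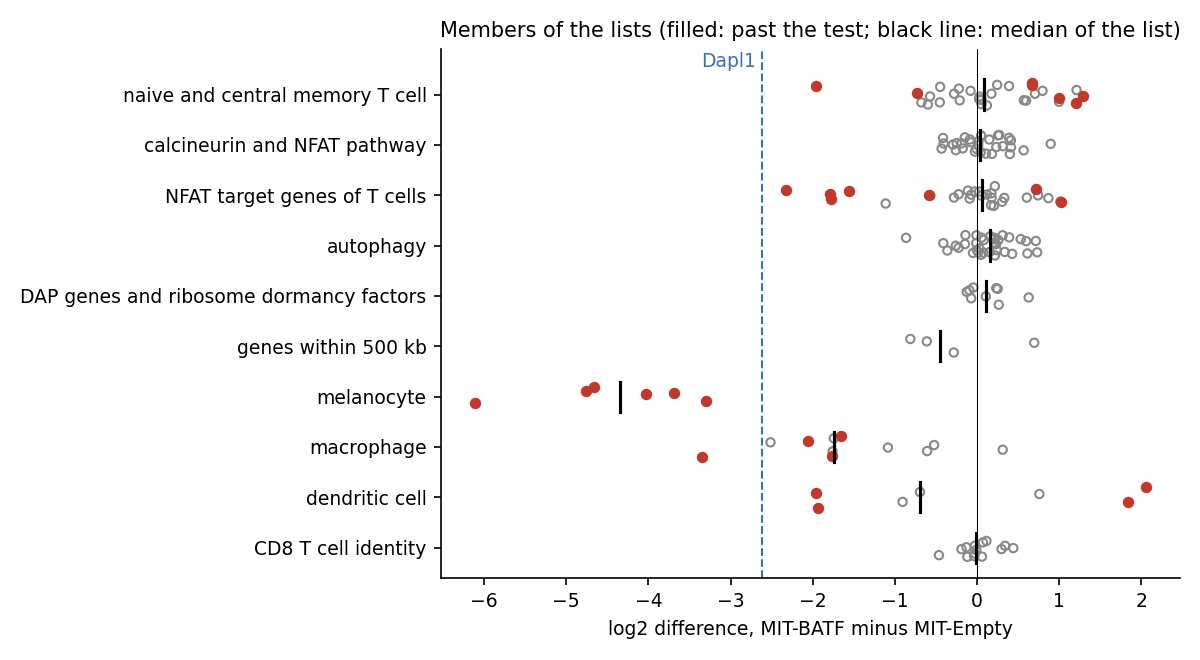
Log2 differences between MIT-BATF and MIT-Empty for the tested members of 10 lists, filled red where edgeR's adjusted p was under 0.05 and open where it was not, with the median of each list as a black line and Dapl1 at -2.61 as a dashed line. No member of the naive and memory, NFAT, autophagy, DAP or neighbour lists lies as low as Dapl1, whereas the 6 melanocyte genes and 1 macrophage gene do.

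Markers of tumor and myeloid cells moved with the groups, and their part in the Dapl1 difference was not tested. The 6 melanocyte genes tested of 8 all fell, with a median log2 difference of -4.35 (2 of 5 with shared reads counted once, and limma voom called 0). Over all genes tested edgeR called 2.43% lower, and 0.683% with shared reads counted once. Every one of the 8 had counts, Mitf and Sox10 at most 56 and 42 in a library. Their summed level was 116, 576, 52.5, 1732 and 39.7 CPM in MIT-Empty replicates 1 to 5 and 14.4 to 29.4 CPM in MIT-BATF. Within MIT-Empty, Dapl1 was lowest in replicate 4, which had the most melanocyte RNA, and highest in replicate 5, which had the least. Between these ends the order was the other way. Replicates 3, 1 and 2, with 52.5, 116 and 576 CPM of melanocyte genes, had 336, 371 and 375 CPM of Dapl1. At their closest, MIT-Empty replicate 5 with 39.7 CPM and MIT-BATF replicate 5 with 29.4 CPM of melanocyte genes had 492 and 85.7 CPM of Dapl1. This pair was picked by its values, each of its libraries is contained in replicate 3 of its group, and no cause is read from it.

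Of 13 macrophage genes 11 were tested, and 4 fell and none rose: Lyz2, the most abundant (log2 difference -1.66), C1qc (-2.06), Apoe (-3.35) and Ms4a7 (-1.77), of which Apoe passed with shared reads counted once. For this list and the dendritic cell list, the shares over all genes were 2.16% higher and 2.43% lower. With shared reads counted once they were 0.575% and 0.683%. The macrophage list summed to 43.8 to 290 CPM in MIT-Empty and 26.4 to 82.8 CPM in MIT-BATF, and MIT-Empty replicate 5 again had the least of its group. With shared reads counted once 1 fell, and 1 also when any of MIT-BATF replicates 2 and 3 or MIT-Empty replicates 2 and 4 was left out, while 2 fell without MIT-BATF replicate 4 or MIT-Empty replicate 3. Of 11 dendritic cell genes 7 were tested, and 2 rose and 2 fell, or 1 and 2 with shared reads counted once, when Itgax was not called (adjusted p = 0.193 from edgeR). The genes that rose were the chemokine receptor gene Xcr1 (2.06) and the integrin gene Itgax (1.84), those that fell were Cd74 (-1.93) and H2-Aa (-1.96), which serve MHC class II presentation, and Cd209a was at 0 in every library. The sum of this list ran in the same order as Dapl1 at its ends within MIT-Empty, with 121 CPM for replicate 4 and 364 CPM for replicate 5, against 69.7 to 108 CPM in MIT-BATF. Most of the sum in MIT-Empty was Cd74, at 69.6 CPM in replicate 4 and 243 CPM in replicate 5, so it does not stand for the list as a whole.

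Epithelial cells, where Dapl1 was first known, left little RNA in these libraries. Of 10 keratinocyte genes 3 were tested, and Krt5, Krt14, Krt15, Krt1 and Krtdap had at most 7 counts in any library. The list summed to 23.1 to 36.0 CPM in MIT-BATF and 27.6 to 39.5 CPM in MIT-Empty, most of it Perp, which T cells also express. Sfn, the 1 gene of the list that rose, had a log2 difference of 2.07 (adjusted p = 0.00865 from edgeR, and 0.0772 with shared reads counted once). For this list and the B cell list, the shares over all genes were 2.16% higher and 2.43% lower. With shared reads counted once they were 0.575% and 0.683%. The B cell list summed to 35.7 to 58.7 CPM in MIT-BATF and 71.5 to 161 CPM in MIT-Empty. Most of this was the 1 gene Ighm, at 32.2 to 53.3 CPM and 69.9 to 158 CPM. Of 8 B cell genes 3 were tested, and Cd79b rose (log2 difference 1.79) and Ighm fell (-1.32), with adjusted p-values of 0.128 and 0.0131 from edgeR with shared reads counted once, while Cd79a and Ms4a1 had at most 4 counts. Of 5 CD4 T cell genes 3 were tested and edgeR, DESeq2 and limma voom called 0, with 0 at an unadjusted p under 0.05, and Cd4 had at most 14 counts, with Trat1 the most abundant. With 2.16% of all genes called higher and 2.43% lower, 0 of 3 says little. Mitochondrially encoded genes took 33.2% of the counts in MIT-BATF replicate 1, 11.5% to 15.1% in the other MIT-BATF libraries and 15.5% to 23.1% in MIT-Empty. With these genes left out of the totals and no TMM scaling, Dapl1 stood at 70.2 ± 12.7 CPM (SD, n = 5) in the MIT-BATF libraries and 449 ± 105 CPM (n = 5) in those of MIT-Empty.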

How the data were processed

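RNA was measured in 10 SMART-Seq2 libraries, read as pairs of 37 bp. The authors ran the nf-core/rnaseq pipeline with mm10 and quantified with Salmon, for which no version or annotation was found in the sources used here. Estimated counts and TPM values per transcript, with transcript lengths, are what the authors deposited. Here 305 of 112092 transcripts had no match in GENCODE M21 (at most 0.089% of counts) and were left out, and the rest were summed per gene and rounded. The protocol marks no strand. Genes were tested with edgeR 4.0.16 (quasi-likelihood test, TMM, filterByExpr, condition as the only term) over 11781 genes, with Benjamini-Hochberg adjustment and a threshold of 0.05. A library was called contained where, in any of 45 pairs, less than 1% of the genes reaching 5 counts were above the other library. Log2 CPM for likeness used a prior count of 2. DESeq2 1.42.0, limma 3.58.1 and other settings were alternatives, run in R 4.3.3, with tables from Python 3.11.15 and pandas 2.3.3.

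Dapl1 and the 12 lists were chosen with earlier results of these data known. Genes named are the 5 most like and 3 most opposed to Dapl1 at its level and, from each list, all called genes where 4 or fewer and otherwise the 4 with the smallest p. Dap, Nfatc2, Batf, Thy1, the neighbours and the most abundant marker of each cell type list were also to be named. Ccr7, S1pr1, Foxp1, Tcf7, Id3, Mitf, Sox10 and the marker genes given with few counts fall outside this rule. They were added once their values had been seen, as were the genes nearest at any level.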

Additional observations from a re-analysis of the deposited data

Results flagged for a closer look

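A library apart from the other 4 of its group, by the gap to its nearest neighbour over the group's range, was looked for in 106 groups of 5 libraries, of which chance flags about 1 in 20, and 8 were found. Neither the CPM nor the TPM of Dapl1 was among them in either group. In MIT-BATF, Batf was at 12.4 CPM in replicate 1 against 22.6 to 26.4 in the others. Baz2b, a neighbour of Dapl1, was at 11.0 CPM in MIT-BATF replicate 1 against 4.68 to 5.96 in the others. Cd200 was at 28.1 CPM in MIT-BATF replicate 1 against 7.77 to 13.0. That library also had the lowest Thy1 (148 CPM) and the highest mitochondrial share (33.2%). Ms4a7, a macrophage gene, was at 3.88 CPM in MIT-BATF replicate 5 against 1.37 to 1.99. Cd74 was at 56.4 CPM in MIT-BATF replicate 4 against 31.6 to 35.0, and the sum of the dendritic cell genes, to which it belongs, was at 108 CPM in replicate 4 against 69.7 to 75.4. In MIT-Empty, Perp was at 34.2 CPM in replicate 1 against 23.7 to 25.4, and the sum of the keratinocyte genes, mostly Perp, was at 39.5 CPM in replicate 1 against 27.6 to 30.5.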

How the results depend on the processing

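The log2 difference of Dapl1 stayed within 1 SD of its replicates (0.41) in all 23 alternatives run, from -2.91 without the 4 contained libraries to -2.46, and was -2.79 to -2.46 with each library left out in turn. The mean share of Dapl1-202 was 0.30% of counts and 0.24% of TPM. Of the 5 genes most like Dapl1, 3 were again nearest over 6 libraries and 0 with any level admitted. The 254 genes called higher and 286 lower became 64 and 76 with shared reads counted once, 37 and 59 without the contained libraries, 436 and 480 by DESeq2, and 546 lower with no filter. They were 140 to 352 and 147 to 420 with each library left out, the lowest without MIT-Empty replicate 2. Counting shared reads once, 4 naive and memory, 4 NFAT target, 2 melanocyte, 1 macrophage, 0 keratinocyte, 1 B cell and 3 dendritic cell genes were called. Without the contained libraries these were 1, 2 and 0 for the first 3 lists, 0 keratinocyte, 1 B cell and 1 dendritic cell gene. DESeq2 called 11 naive and memory genes, limma voom 0 melanocyte and 2 macrophage genes, and a mean count of at least 50 left 1 B cell gene. Transcript length offsets called 1 autophagy gene and 1 neighbour. With each library left out the called genes numbered 5 to 8 naive and memory, 4 to 7 NFAT target, 4 to 7 melanocyte, 1 to 4 macrophage, 1 to 2 B cell and 3 to 4 dendritic cell genes, and 0 to 1 autophagy, NFAT pathway, CD8 identity and neighbour genes. Same-numbered libraries of the groups did not deviate together (correlations of deviations from the group means -0.0455 to 0.222, and 2 of 5 matched their own number best). With a replicate block the log2 difference of Dapl1 was -2.63, and 1 melanocyte and 2 macrophage genes were called. Where a count changed, the cause was not tested.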
